A study of Mus musculus with 4 samples.

Results

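Heat shock proteins, their co-chaperones and the chaperonins were examined in effector T cells sorted by surface CD5. Members were taken from the authors' deposited table of CD5 high against CD5 low cells by gene symbol alone: heat shock proteins (Hsp), J-domain proteins (Dnaja, Dnajb, Dnajc), subunits of the CCT chaperonin (Cct2 to Cct8 and Tcp1), the heat shock factors Hsf1 and Hsf2, and Bag1 to Bag6. The pattern found 61 members among 7252 tested genes. It matches 93 protein-coding symbols in RefSeq, and the other 32, such as Hspa2, Bag2 and Dnajb5, are not analysed here. The symbol Hspb11 names an intraflagellar transport protein of cilia and no chaperone. The cells came from NOD.Foxp3-GFP mice aged 6 to 9 weeks, that is, NOD mice, a strain that develops autoimmune diabetes, with a fluorescent reporter of the regulatory T cell factor Foxp3, and both groups share this genotype. The labels give the tissue as pancreatic islets and spleen, the titles name islet effector T cells, and there were 2 libraries for CD5 high and 2 for CD5 low, numbered 3 and 4 in each group. No label says whether libraries came from separate animals or pools, so the authors' p-values may measure technical spread only.

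Chaperones bind unfolded stretches of other proteins and let them fold instead of clumping. HSP70 proteins grip short hydrophobic segments in a cycle driven by ATP, J-domain proteins deliver the clients and trigger ATP hydrolysis, and nucleotide exchange factors (HSP110, Bag and HspBP1 proteins) help release them. HSP90 takes over partly folded kinases and receptors, including the T cell kinase Lck, and the CCT chaperonin folds actin and tubulin inside a closed chamber. The transcription factor Hsf1 turns on many of these genes when proteins unfold, and T cell activation and tissue dissociation are both known to raise some of them.

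None of the chaperone genes passed the authors' test at q under 0.05 (0 of 61), against a share of 0.758% over all tested genes, which was 0.538% with higher and 0.221% with lower values in CD5 high. With so low a share, 0 calls among 61 genes is no departure from the background. The lowest q among the members was 0.113 in the authors' deposited table. At an unadjusted p under 0.05, 3 of 61 members (4.92%) were past the threshold against 10.3% of all tested genes, a share below the background. They were Hspa13 and Dnajb13, with higher values in CD5 high (background 5.58%), and Dnajb1, with a lower one (background 4.7%). Of the 61 members, 37 had a lower value in CD5 high and 24 a higher one, which is 60.7% lower against 50.9% of all tested genes. The median log2 fold change, CD5 high over CD5 low, was -0.10 for the members and -0.01 for all tested genes. The groups were within 2-fold of each other for 58 members (95.1%) and for 95.6% of all tested genes with a finite fold.

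**Figure D1:**
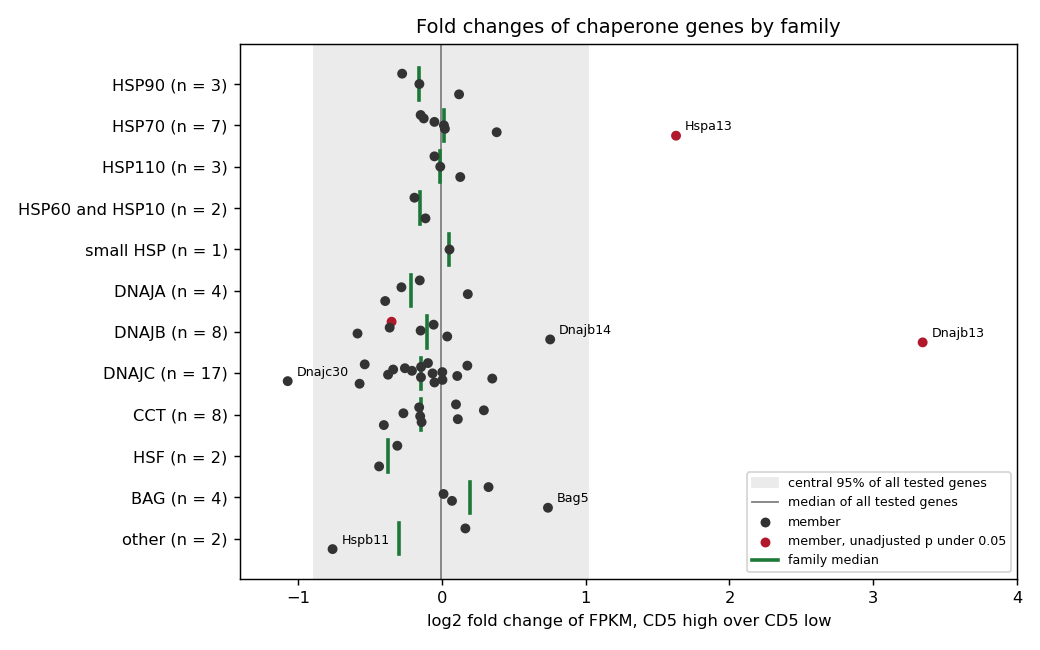
Each point is the log2 fold change of 1 member's group FPKM, CD5 high over CD5 low, by family (rows). Green bars are family medians, the grey band is the central 95% of all tested genes (-0.88 to 1.02), and red points have an unadjusted p under 0.05; most members lie close to 0, and Hspa13, Dnajb13 and Dnajc30 lie outside the band.

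Each value is 1 combined FPKM per group (sequenced fragments per kilobase of transcript, scaled to depth), so no SD or n can be attached and the depth is unknown. All tested genes had 6.82 FPKM or more in at least 1 group. Hspa13, Dnajb14, Dnajb13 and Bag5 were below that level in CD5 low and met it through CD5 high alone, so for them a higher value in CD5 high was a condition of being tested. Of all 753 tested genes with a group below that level, 375 were higher and 378 lower in CD5 high. The T cell markers Cd3d, Cd3e, Cd3g, Cd4 and Lat summed to 2954 FPKM in the CD5 low group and to 3130 FPKM in the CD5 high group. Sums of markers of other cells were unequal: 6 of 8 macrophage and dendritic cell genes were tested and summed to 1089 and 483 FPKM, with Fcer1g listed at 0 in CD5 high and 5 lower in CD5 high at q under 0.05. In the same order, 5 of 6 regulatory T cell genes summed to 285 and 556 FPKM, 4 of 6 endocrine genes to 301 and 2788 FPKM, 7 of 8 exocrine genes to 912 and 803 FPKM, and 7 of 8 cell cycle genes to 179 and 260.4 FPKM. The endocrine genes went opposite ways, with Sst at 263 and 6.86 FPKM, Ins1 at 4.003 and 368 FPKM and Ins2 at 26.7 and 2395 FPKM. Of 4 B cell genes 1 was tested, Cd79b, with 11.0 and 14.0 FPKM. The part of these cells in the values below was not tested, and in bulk samples fewer cells of a type and less RNA per cell cannot be told apart.

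A few chaperones were among the abundant transcripts of both groups, with 16 of the 61 members in the top 10% of tested genes by mean FPKM and 0 in the top 1%, while 14 had a mean under 20 FPKM. Together the members summed to 10771 FPKM in the CD5 low group and to 9680 FPKM in the CD5 high group, which is 1.04% and 1.01% of the FPKM of all tested genes. The 8 most abundant, Hspa8, Hsp90aa1, Hsp90ab1, Hspe1, Dnajb1, Hspa1a, Hspa1b and Hsph1, all lay in the top 5% of tested genes by mean FPKM. They made up 73.4% of the members' sum in CD5 low and 71.7% in CD5 high. All 7 members with a mean of at least 400 FPKM had lower values in CD5 high, with a median log2 fold change of -0.16, though Hspa1b turned to 0.02 under quantile normalization. Other genes of that abundance also tended to lower values: of all 248 tested genes with such a mean, 153 (61.7%) were lower, with a median of -0.07. At a mean of at least 100 FPKM, 13 of 17 members were lower and 4 higher in CD5 high (median -0.13). Of all 785 tested genes with that mean, 54.0% were lower (median -0.03).

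**Figure D2:**
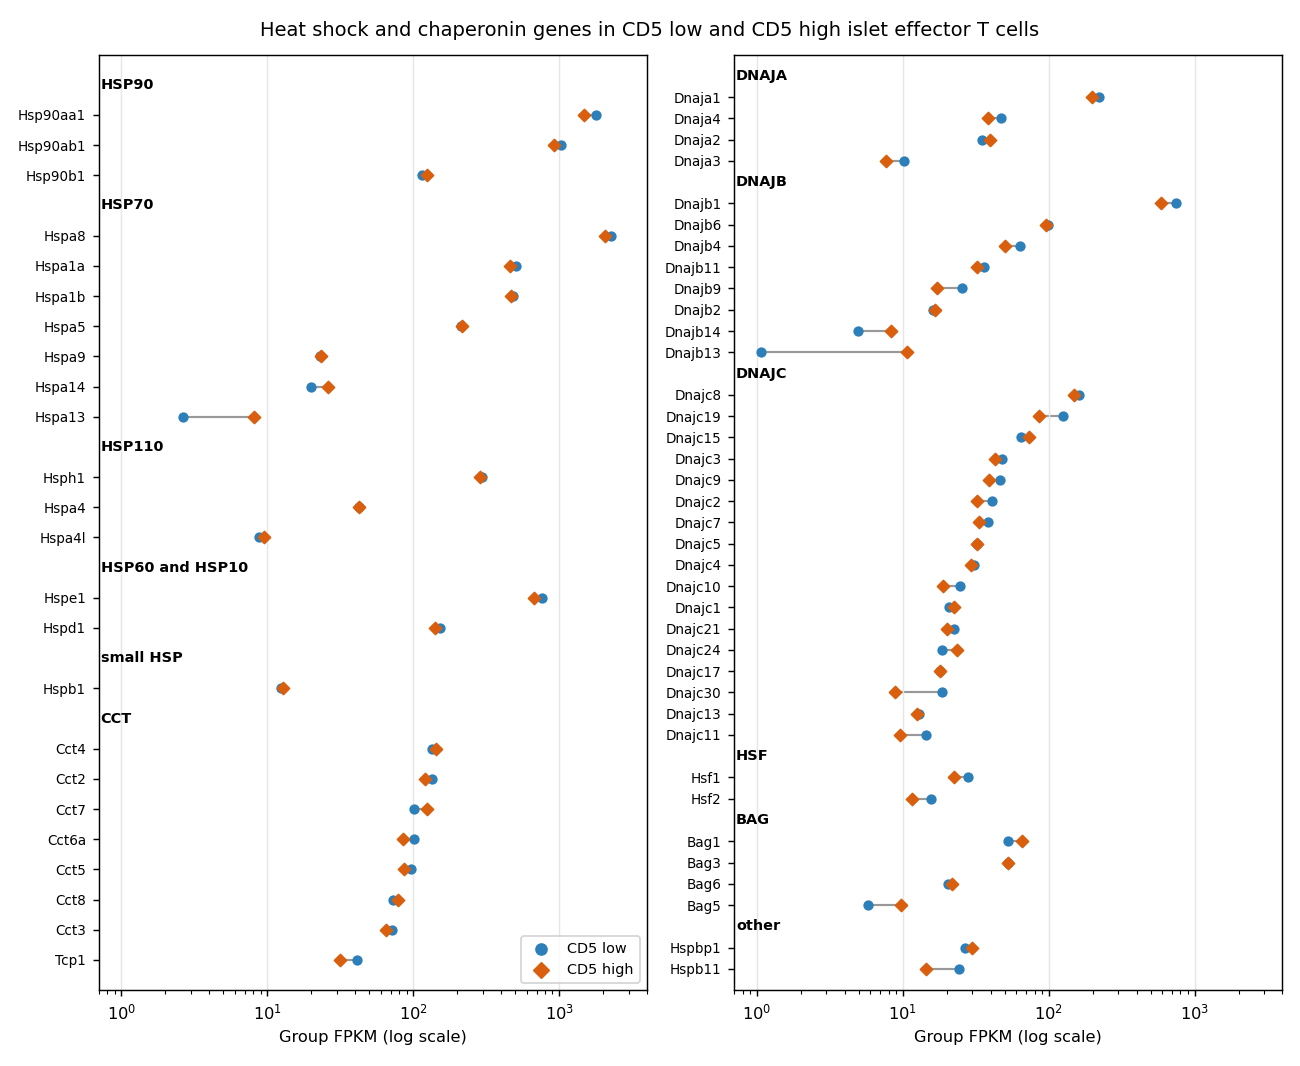
Group FPKM (log axis) of all 61 members in CD5 low (blue circles) and CD5 high (orange diamonds), grouped by family and ordered by level within it. Levels span from 1.06 FPKM (Dnajb13, CD5 low) to 2283 FPKM (Hspa8, CD5 low), and for most members the markers of the groups nearly coincide.

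Among the HSP90 genes, the cytosolic pair was far more abundant than the form of the endoplasmic reticulum (ER). Hsp90aa1, the stress-inducible cytosolic form, stood at 1793 FPKM in CD5 low cells and 1482 FPKM in CD5 high cells, 1.21-fold lower. Hsp90ab1, the constitutive cytosolic form, stood at 1030 FPKM in CD5 low cells and 924 FPKM in CD5 high cells. The inducible form exceeded the constitutive one 1.74-fold in CD5 low and 1.60-fold in CD5 high. Hsp90b1, the ER form GRP94 that folds integrins and Toll-like receptors, stood at 115 FPKM in CD5 low cells and 125 FPKM in CD5 high cells, the only member of the family with a higher value in CD5 high. None of these differences passed the test, with q = 0.638, 0.812 and 0.878 for the genes in this order in the authors' deposited table.

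In the HSP70 family 4 genes had higher and 3 lower values in CD5 high, with a median log2 fold change of 0.02 that turned to -0.02 when genes with a mean under 20 FPKM were left out. The 4 include Hspa13, for which a higher value in CD5 high was a condition of being tested. Hspa8, the constitutive cytosolic HSC70, was the most abundant member of all, at 2283 FPKM in CD5 low cells and 2062 FPKM in CD5 high cells. It held 64.6% of the family's summed FPKM in CD5 low and 63.1% in CD5 high. The heat-inducible Hspa1a stood at 505 FPKM in CD5 low cells and 463 FPKM in CD5 high cells. Its near-identical neighbour Hspa1b stood at 485 FPKM in CD5 low cells and 469 FPKM in CD5 high cells. The pair lies on chromosome 17, Hspa1a at 34969359 to 34972156 and Hspa1b at 34956429 to 34959238 (mm10). Reads that fit both copies can be divided between them by the counting, and Hspa1a also shares 19.01% of its exon bases with Gm20481 on the opposite strand, so the separate values are uncertain.

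Hspa5 and Hspa9, the main HSP70 forms of the ER and the mitochondria, were nearly equal between the groups. Hspa5, the ER chaperone BiP and a classic reporter of ER stress, stood at 213 FPKM in CD5 low cells and 215 FPKM in CD5 high cells. Hspa9, the mitochondrial form mortalin, stood at 22.9 FPKM in CD5 low cells and 23.3 FPKM in CD5 high cells. Cytosolic Hspa8 was 10.7-fold above Hspa5 and 99.6-fold above Hspa9 in CD5 low, and 9.60-fold and 88.6-fold above them in CD5 high. Hspa14, an HSP70 that works with Dnajc2 on ribosomes, stood at 19.9 FPKM in CD5 low cells and 25.9 FPKM in CD5 high cells. In the authors' deposited table q was from 0.708 (Hspa14) to 0.987 (Hspa9) for these 6 HSP70 genes.

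The lowest q of all members belonged to Hspa13, an atypical HSP70 of microsomes that lacks the usual substrate-binding domain. It stood at 2.64 FPKM in CD5 low cells and 8.16 FPKM in CD5 high cells, 3.09-fold higher (unadjusted p = 0.0016 and q = 0.113, the authors' deposited table). That q misses the threshold, and a mean of 5.40 FPKM puts the gene among the weakest expressed of those tested. A higher value in CD5 high was also a condition of its being tested. Its locus in the table is chromosome 16, 75755191 to 75766818 (mm10).

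Nucleotide exchange factors of the HSP110 family differed little between the groups. Hsph1, the inducible form, stood at 296 FPKM in CD5 low cells and 285 FPKM in CD5 high cells. Hspa4 stood at 42.7 and 42.4 FPKM in the same order, and Hspa4l at 8.71 and 9.52 FPKM. Each had q of 0.935 or more in the authors' deposited table. Hspbp1, an exchange factor of another fold, stood at 26.8 FPKM in CD5 low cells and 30.0 FPKM in CD5 high cells. The ciliary Hspb11 stood at 24.4 FPKM in CD5 low cells and 14.4 FPKM in CD5 high cells (q = 0.740, the authors' deposited table).

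The Bag family includes exchange factors that link HSP70 to other pathways. All 4 tested Bag genes had higher values in CD5 high, though for Bag5 this was a condition of being tested. Bag3 turned to a log2 fold change of -0.0023 under quantile normalization. The family median was 0.20 on the log2 scale and 0.07 without Bag5, whose mean is under 20 FPKM, and none passed the test. Bag1, which also binds Bcl2, stood at 52.4 FPKM in CD5 low cells and 65.7 FPKM in CD5 high cells. Bag3, an Hsf1 target that guides clients to autophagy, stood at 52.4 FPKM in CD5 low cells and 52.9 FPKM in CD5 high cells. Bag6, which handles tail-anchored membrane proteins, stood at 20.6 FPKM in CD5 low cells and 21.6 FPKM in CD5 high cells. The largest fold was that of Bag5, the weakest expressed of the 4, with 5.79 FPKM in CD5 low cells and 9.65 FPKM in CD5 high cells (q = 0.617, the authors' deposited table).

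J-domain proteins form the largest group, with 29 members of which 20 had lower values in CD5 high and 9 higher ones (median log2 fold change -0.14). The 9 include Dnajb13 and Dnajb14, for which a higher value in CD5 high was a condition of being tested. Dnajb1, the Hsf1-induced partner of cytosolic HSP70, alone made up 36.6% of the summed J-domain FPKM in CD5 low and 33.4% in CD5 high. It stood at 748 FPKM in CD5 low cells and 587 FPKM in CD5 high cells, 1.27-fold lower (unadjusted p = 0.0487 and q = 0.483, the authors' deposited table). Dnajb1 lies on chromosome 8 at 83608175 to 83611903 (mm10).

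Other cytosolic J-domain genes did not pass the test either, and some differed about as much as Dnajb1, such as Dnajb4 (1.29-fold lower) and Dnaja4 (1.21-fold lower). Dnaja1 stood at 221 FPKM in CD5 low cells and 199 FPKM in CD5 high cells, and its relative Dnaja2 at 35.2 and 39.9 FPKM. Dnajb6, a suppressor of protein aggregation, stood at 99.2 FPKM in CD5 low cells and 95.4 FPKM in CD5 high cells. Dnajb4 stood at 64.0 FPKM in CD5 low cells and 49.8 FPKM in CD5 high cells. Dnajc7, which has TPR repeats that bind HSP70 and HSP90, stood at 38.5 and 33.3 FPKM in the same order, and Dnajb2, a neuronal J-protein, at 16.1 and 16.5 FPKM. Dnaja4 stood at 46.9 FPKM in CD5 low cells and 38.6 FPKM in CD5 high cells, and 44.1% of its exon bases are shared with Wdr61 on the opposite strand, itself at 32.3 and 27.3 FPKM. Over these 7 genes q was from 0.606 (Dnajb4) to 0.982 (Dnajb2) in the authors' deposited table.

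Dnajb13, a J-domain protein of the radial spokes of cilia and sperm tails, had the largest fold of the 61 members. For this gene too, a higher value in CD5 high was a condition of being tested. It stood at 1.06 FPKM in CD5 low cells and 10.8 FPKM in CD5 high cells, 10.1-fold higher (unadjusted p = 0.0394 and q = 0.451, the authors' deposited table). The gene shares 11.2% of its exon bases with Ucp2, a mitochondrial carrier gene on the opposite strand, and the library kit does not mark strand. Ucp2 stood at 99.2 FPKM in CD5 low cells and 130.3 FPKM in CD5 high cells (unadjusted p = 0.0338 and q = 0.433, the authors' deposited table), and its part in the Dnajb13 value was not tested.

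DNAJC proteins carry a J-domain within otherwise diverse proteins, and 12 of the 17 had lower values in CD5 high (median log2 fold change -0.14). Dnajc2, the ribosome-bound partner of Hspa14, stood at 40.8 FPKM in CD5 low cells and 32.3 FPKM in CD5 high cells. Dnajc21, a factor of ribosome maturation, stood at 22.4 and 20.2 FPKM in the same order. Dnajc24, which takes part in making the modified histidine diphthamide of elongation factor eEF2, stood at 18.6 FPKM in CD5 low cells and 23.7 FPKM in CD5 high cells. Among nuclear members, Dnajc8, a spliceosome protein, was the most abundant DNAJC gene, at 160.3 and 150.1 FPKM. Dnajc17, also tied to splicing, stood at 17.97 and 18.03 FPKM, and the histone chaperone Dnajc9 at 46.2 and 38.7 FPKM. Those of vesicles were close to equal, the vesicle protein Dnajc5 at 32.4 and 32.5 FPKM and the endosomal Dnajc13 at 12.9 and 12.5 FPKM. Dnajc4 stood at 30.8 FPKM in CD5 low cells and 29.5 FPKM in CD5 high cells. All 9 were within 1.5-fold between the groups, with q from 0.687 (Dnajc2) to 0.996 (Dnajc17) in the authors' deposited table.

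The ER holds 9 members, of which 5 had higher and 4 lower values in CD5 high, and their sums were nearly equal at 489 FPKM in CD5 low cells and 490 FPKM in CD5 high cells (Hspa5, Hsp90b1 and Hspa13 are given above). Among the 5, Hspa13 and Dnajb14 were tested only because their CD5 high values were the larger ones. The 4 with lower values were J-domain proteins of the ER lumen. Dnajb9 (ERdj4), a target of the ER stress factor Xbp1, stood at 25.6 FPKM in CD5 low cells and 17.0 FPKM in CD5 high cells, the largest difference among them (log2 fold change -0.59, q = 0.527, the authors' deposited table). Dnajc10 (ERdj5), a disulfide reductase, stood at 24.5 and 18.9 FPKM in the same order. Dnajb11 (ERdj3), a cofactor of BiP, stood at 35.8 and 32.3 FPKM, and Dnajc3 (p58IPK), another cofactor of BiP, at 47.6 and 43.1 FPKM. The ER membrane proteins Dnajb14 and Dnajc1 had higher values in CD5 high. Dnajb14 went from 4.92 FPKM in CD5 low cells to 8.29 FPKM in CD5 high cells. Dnajc1 went from 20.7 to 22.3 FPKM in the same order. Neither passed the test (q = 0.662 and 0.949, the authors' deposited table). Since the direction of Dnajb14 was fixed in advance, a contrast of ER membrane and lumen would rest on Dnajc1 alone. No such contrast is drawn here.

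Of the 8 mitochondrial members 6 had lower values in CD5 high, and they summed to 1173 FPKM in CD5 low cells and 1021 FPKM in CD5 high cells. Hspd1 and Hspe1 encode the chamber (HSP60) and the lid (HSP10) of the mitochondrial chaperonin. Hspe1 stood at 764 FPKM in CD5 low cells and 669.99 FPKM in CD5 high cells. Hspd1 stood at 153 FPKM in CD5 low cells and 141 FPKM in CD5 high cells. The lid transcript thus exceeded the chamber transcript 4.99-fold in CD5 low and 4.73-fold in CD5 high. Neither gene passed the test (q = 0.772 for Hspe1 and 0.888 for Hspd1, the authors' deposited table).

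Of the J-domain genes tied to protein import into mitochondria, Dnajc19 had a lower and Dnajc15 a higher value in CD5 high. Dnajc19 stood at 125 FPKM in CD5 low cells and 86.4 FPKM in CD5 high cells, and Dnajc15 at 65.1 and 73.7 FPKM. Dnajc11, linked to the cristae, stood at 14.3 FPKM in CD5 low cells and 9.65 FPKM in CD5 high cells. Dnaja3 (Tid1), a partner of mortalin, stood at 10.1 FPKM in CD5 low cells and 7.71 FPKM in CD5 high cells. Dnajc30 had the largest fold toward CD5 low of all members, at 18.6 FPKM in CD5 low cells and 8.84 FPKM in CD5 high cells (2.10-fold, q = 0.680, the authors' deposited table). It shares 26.2% of its exon bases with Bud23 on the opposite strand, which the table lists as Wbscr22 at 16.2 and 15.8 FPKM. The deposited locus of Dnajc30, chromosome 5 at 135052957 to 135065365 (mm10), is much longer than the annotated gene, 135064202 to 135065862. The effect of this on its value was not tested. For the other 4 genes q was from 0.569 (Dnajc11) to 0.897 (Dnajc15) in the authors' deposited table.

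CCT, also called TRiC, is built from 8 different subunits in equal numbers, and all 8 were tested. Cct4 and Cct2 were the most abundant in CD5 low, Cct4 at 135 FPKM in CD5 low cells and 144 FPKM in CD5 high cells and Cct2 at 135 and 121 FPKM. Cct7 stood at 102 FPKM in CD5 low cells and 125 FPKM in CD5 high cells, the largest difference toward CD5 high. Cct6a stood at 102 FPKM in CD5 low cells and 84.7 FPKM in CD5 high cells. Cct5 stood at 96.5 and 87.0 FPKM in the same order, Cct8 at 72.3 and 78.1 FPKM, and Cct3 at 71.4 and 64.8 FPKM. Tcp1, the alpha subunit, was the lowest in both groups, at 41.4 FPKM in CD5 low cells and 31.3 FPKM in CD5 high cells. The highest subunit exceeded Tcp1 3.25-fold in CD5 low and 4.60-fold in CD5 high, and without Tcp1 the subunits lay within 1.88-fold of each other in CD5 low and 2.22-fold in CD5 high. Cct4, Cct7 and Cct8 had higher values in CD5 high and the other 5 lower ones, with a median log2 fold change of -0.14. For the 8 subunits q was from 0.638 (Cct7) to 0.916 (Cct8) in the authors' deposited table. Tcp1 shares 11.4% of its exon bases with Acat3 and Cct6a 12.5% with Psph, both on the opposite strand. The deposited locus of Tcp1, chromosome 17 at 12916465 to 12940396 (mm10), also reaches past the annotated gene, 12915701 to 12925067.

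**Figure D3:**
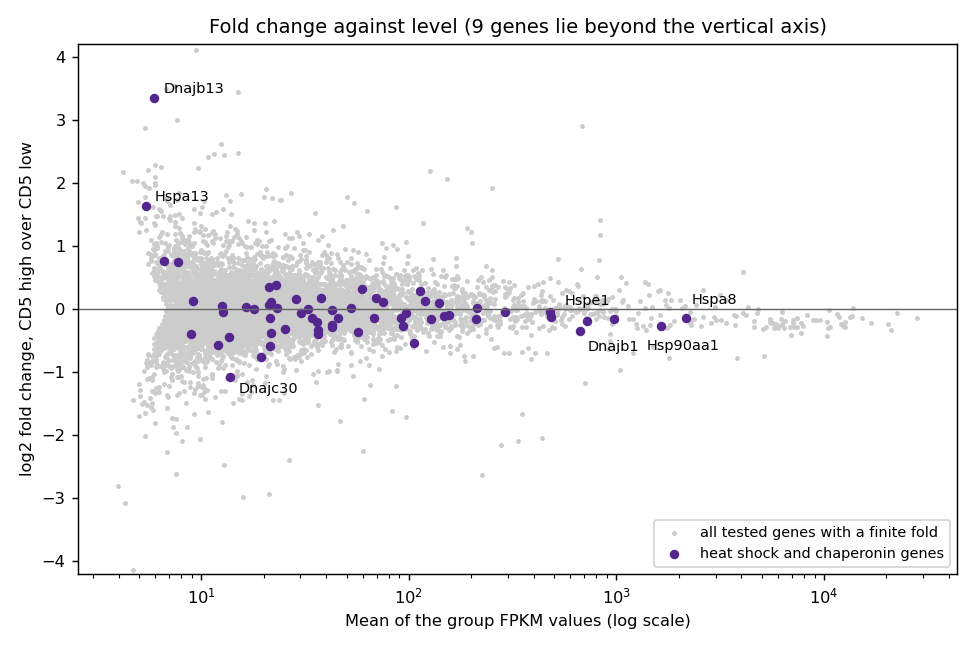
Log2 fold change, CD5 high over CD5 low, against the mean of the group FPKM values (log axis) for all tested genes with a finite fold (grey) and for the members (purple). Dnajb13 and Hspa13 lie at the low end of expression, while Dnajb1, Hspe1, Hsp90aa1 and Hspa8 lie at the high end with values slightly below 0, as do most genes of that abundance.

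Neither heat shock factor gene was called, and both values were lower in CD5 high. Hsf1, the master regulator of the heat shock response, stood at 27.9 FPKM in CD5 low cells and 22.5 FPKM in CD5 high cells (q = 0.764, the authors' deposited table). Hsf2, a related factor that can pair with Hsf1, stood at 15.7 FPKM in CD5 low cells and 11.6 FPKM in CD5 high cells (q = 0.682, the authors' deposited table). A set of 12 genes linked to the heat response was chosen after the values were seen: Hsp90aa1, Hspa8, Hspa1a, Hspa1b, Hsph1, Dnajb1, Dnaja1, Dnajb4, Hspd1, Hspe1, Hspb1 and Bag3. Hspa8 is in the set although it is described above as the constitutive form. Of the 12, 10 (83.3%) had lower values in CD5 high, with a median log2 fold change of -0.14. The share was 50.9% over all tested genes and 61.7% over those with a mean of at least 400 FPKM. Since the values were known when the set was chosen, this count is a description only. Under quantile normalization Hspa1b turned to 0.02 and Bag3 to -0.0023. Hspb1, the small heat shock protein HSP25, stood at 12.4 FPKM in CD5 low cells and 12.8 FPKM in CD5 high cells (q = 0.986, the authors' deposited table). Immediate early genes, which can rise when tissue is dissociated, lay on the same side: of 13 tested, 12 had lower values in CD5 high and Junb a higher one. Their median was -0.21 on the log2 scale, their sums 2604 FPKM in CD5 low cells and 2314 FPKM in CD5 high cells, and 0 passed either q or the unadjusted p under 0.05. Their part in the chaperone values was not tested.

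Heat shock factors bind alternating GAA and TTC units spaced by 2 bases, and the ER stress element reads CCAAT followed, after 9 bases, by CCACG. RefSeq promoter windows (GRCm38.p6, the assembly of mm10), from 250 bases before to 50 after the start site, were found for 50 of the 61 members. A run of 3 heat shock units in either order, which covers both strands, occurred at 4 of these 50 genes (8%), namely Hspd1, Hspe1, Hsph1 and Dnajb6, against 0.603% of all 32851 windows and 0.717% of the 5442 tested genes with a window. The Hspd1 and Hspe1 windows share 285 bases, so the element there is counted for both genes. A pair of units (GAANNTTC or TTCNNGAA, each its own reverse complement, and part of every longer run) occurred at 15 of the 50 genes (30%), against 15.1% of all windows and 14.4% of tested genes. The ER stress letters, searched on both strands, occurred at Hspa5, Hsp90b1 and Dnajc3, 3 of 50 genes (6%), against 0.119% of all windows and 0.184% of tested genes. CCAAT or ATTGG, which the ER stress letters contain, was found at 22 of the 50 genes (44%), against 37.4% of windows and 42.9% of tested genes. A match is a description of the letters only.

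The following promoter stretches are shown because they carry these elements at genes described above, with the matching letters in capitals, 5′ to 3′ on the gene's strand. In the windows that hold the element, Hspe1 and Hspd1 start 216 bases apart in opposite directions on chromosome 1. Their shared element lies between these start sites, at bases -89 to -72 from the first transcribed base of Hspe1. The annotated Hspd1 gene reaches farther, to base 55088243, and its exons share 112 bases with those of Hspe1 (7.60% of Hspe1). The Hsph1 element lies just after its start site, and only a short flank is printed. The Hspa1a and Hspa1b windows are equal at 296 of 300 bases, and the stretches printed have the same letters.
Hspe1 and Hspd1 (chr1:55088039-55088096, + strand): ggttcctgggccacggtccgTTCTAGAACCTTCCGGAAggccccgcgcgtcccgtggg
Hsph1 (chr5:149636280-149636308, - strand): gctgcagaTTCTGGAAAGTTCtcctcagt
Dnajb6 (chr5:29735832-29735884, + strand): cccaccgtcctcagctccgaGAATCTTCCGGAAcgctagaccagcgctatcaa
Hspa1a (chr17:34972233-34972280, - strand): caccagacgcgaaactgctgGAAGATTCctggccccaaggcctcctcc
Hspa1b (chr17:34959315-34959362, - strand): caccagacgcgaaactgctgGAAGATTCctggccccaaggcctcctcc
Hspb1 (chr5:135887782-135887849, + strand): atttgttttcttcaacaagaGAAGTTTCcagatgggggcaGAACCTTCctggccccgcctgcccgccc
Hspa5 (chr2:34772005-34772063, + strand): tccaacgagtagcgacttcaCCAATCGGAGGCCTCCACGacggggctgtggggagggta
Dnajc3 (chr14:118937807-118937865, + strand): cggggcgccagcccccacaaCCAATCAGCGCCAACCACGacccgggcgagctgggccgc
Hsp90b1 (chr10:86705513-86705676, - strand): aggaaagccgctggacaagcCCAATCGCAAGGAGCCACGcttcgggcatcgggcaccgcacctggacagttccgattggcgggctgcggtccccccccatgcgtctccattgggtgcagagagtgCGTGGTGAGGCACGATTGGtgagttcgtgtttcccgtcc

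**Figure D4:**
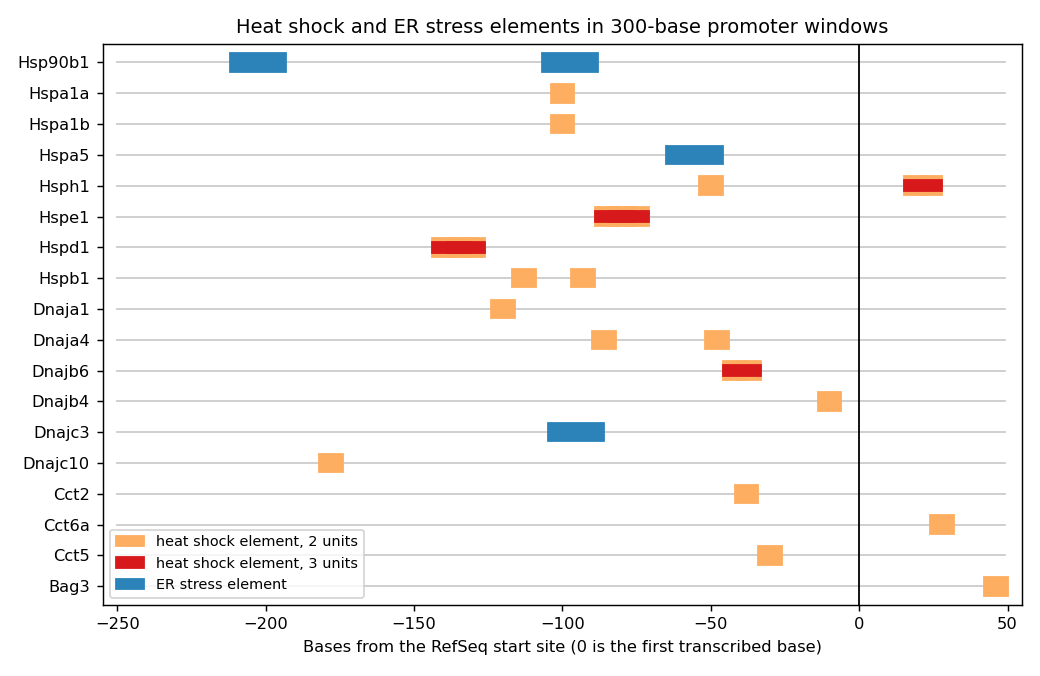
Positions of heat shock elements (orange, a pair of units; red, 3 units) and ER stress elements (blue) in the promoter windows of the members that hold any, in bases from the RefSeq start site; where a gene has several windows, the one with the lowest coordinate that holds an element is drawn. The elements of Hspe1 and Hspd1 are the same bases seen from opposite start sites, and Hsp90b1 holds 2 ER stress elements.

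Set beside the levels, the 15 members with a pair of heat shock units had a median of 102 FPKM in CD5 low and of 95.4 FPKM in CD5 high, against 30.8 and 30.02 FPKM for the 35 without. Of those 15, 13 had lower values in CD5 high (median log2 fold change -0.15), and of the 35, 17 had lower values (median 0.00). The 35 include Dnajb13 and Dnajb14, for which a higher value in CD5 high was a condition of being tested. They also include Dnajb1, described above as Hsf1-induced (log2 fold change -0.35). Lacking a pair in this window thus does not show that a gene is outside the reach of Hsf1. Members without a window are in neither set. The sets also differ in level. Of all tested genes 50.9% were lower, and of those with a mean of at least 400 FPKM 61.7%. Hspd1 and Hspe1 are both counted for the same element, and Hspa1a and Hspa1b for near-identical windows. All 4 members with 3 units had lower values, with a median of -0.08. The 3 members with ER stress letters had log2 fold changes of 0.02 (Hspa5), 0.12 (Hsp90b1) and -0.14 (Dnajc3). These are descriptions of group values, with no test between the sets.

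Partners of these chaperones outside the symbol pattern were tested for 58 of 68 genes listed, and 0 passed at q under 0.05. Of the 58, 31 had lower and 27 higher values in CD5 high (median log2 fold change -0.03), and 4 were past an unadjusted p under 0.05. Over all tested genes the shares were 0.758% at that q and 10.3% at that p, so these 4 of 58 were not above the background. With so low a share at that q, 0 of 58 is no departure from it. St13, the HSP70-interacting protein Hip, stood at 41.1 FPKM in CD5 low cells and 61.6 FPKM in CD5 high cells (q = 0.379, the authors' deposited table). Unc45a, a myosin chaperone, stood at 15.0 FPKM in CD5 low cells and 22.1 FPKM in CD5 high cells (q = 0.469, the authors' deposited table). The other two had lower values in CD5 high. Ttc4, an HSP90 cofactor, stood at 15.8 FPKM in CD5 low cells and 9.20 FPKM in CD5 high cells (q = 0.408, the authors' deposited table). Pdia3, an ER disulfide isomerase that works on class I histocompatibility molecules, stood at 53.5 FPKM in CD5 low cells and 38.8 FPKM in CD5 high cells (q = 0.440, the authors' deposited table).

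Of the main HSP90 partners none was called either. Stip1 (Hop), which links HSP70 to HSP90, stood at 52.2 FPKM in CD5 low cells and 53.5 FPKM in CD5 high cells. The kinase loader Cdc37 stood at 39.4 and 48.6 FPKM in the same order, and Ptges3 (p23) at 106 and 111 FPKM. Ahsa1, the activator of the HSP90 ATPase, stood at 99.4 FPKM in CD5 low cells and 74.9 FPKM in CD5 high cells, the lowest q of these (0.562, the authors' deposited table). Stub1 (CHIP), a ubiquitin ligase that binds HSP70 and HSP90, stood at 59.2 FPKM in CD5 low cells and 51.6 FPKM in CD5 high cells. By group, lower values in CD5 high were found for 13 of 23 HSP90 co-chaperones, 3 of 5 HSP70 co-factors, 3 of 8 prefoldin and CCT helpers, 5 of 9 ER folding genes, 2 of 3 ER stress factors, 2 of 3 mitochondrial proteases and 3 of 7 remaining genes.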

How the data were processed

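RNA was sequenced from CD5 high and CD5 low effector T cells, 2 libraries each, with Nextera XT, per the labels' protocols. Per the submitters' processing notes, TopHat 1.0.0 and Cufflinks were used with build mm10; no source used here gives the annotation. Per the file headers, the authors deposited 1 FPKM per gene and group, its log2 fold change, a score (the test statistic), a p-value and a q-value, as Cuffdiff names them. Recomputed log2 ratios differed from the deposited ones by at most 5.1e-05, so no pseudocount was added. Depth per library is unknown.

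Members were rows with status OK and a single gene name matching the symbol pattern. The members and gene lists were chosen with earlier results of these data known. Calls are the authors' q-values under 0.05 over all 7252 tested genes. Medians, counts, folds and sums were computed from group values with pandas 2.3.3 in Python 3.11.15, with no test of lists. A planned limma test was not run, since it needs values per library, and planned protein sequences were not used here. The naming rule took members past q or an unadjusted p under 0.05, the most abundant and the extreme folds of each family, all CCT subunits, matched forms of different compartments, heat shock factors and Bag genes; remaining members are given by their values. Exon overlaps came from GENCODE M21. For 8 members the deposited locus was over 1.1 times as long as the gene annotated there. The ER stress letters were added to the promoter search after the values were seen. Of 10 genes whose printed or compared windows were checked against annotated transcript starts, 9 matched, and Dnajc3 did not. Adjustment, quantile scaling and motif search were tested on simulated data.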

Additional observations from a re-analysis of the deposited data

How the results depend on the processing

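The members' median log2 fold change of -0.10 stayed below 0 under each alternative run: it was -0.0861 with quantile normalization, -0.0871 with centring on the median of all tested genes, -0.10 with 1 FPKM added, -0.13 for members with a mean of at least 20 FPKM, -0.0796 without Hspb11 and -0.13 without the 4 members below 6.82 FPKM in CD5 low, an alternative chosen after seeing the data. The count of members past q under 0.05 was 0, also with p-values adjusted again over all tested rows or over genes with a mean of at least 20 FPKM. It was 3 at an unadjusted p under 0.05, by the looser threshold itself. With quantile normalization 3 members changed sign, all within 0.051 of 0 on the log2 scale: Hspa1b, Dnajc5 and Bag3. With the 20 FPKM filter the BAG median moved from 0.20 to 0.07 and the DNAJB median from -0.10 to -0.35, the HSP70 median turned from 0.02 to -0.02, and that of Hspbp1 with Hspb11 from -0.30 to 0.16, since Hspb11 is then left out. No paired analysis was possible because the table analysed here gives group values only, although libraries of both groups carry the numbers 3 and 4 in their titles; for the same reason no library could be left out in turn. Unknown depth limits the least expressed members most.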
